A study of Mus musculus with 8 samples.

Results

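Imprinted genes are transcribed mainly from the copy inherited from the mother or mainly from the copy inherited from the father. DNA methylation laid down in egg or sperm marks control regions around which imprinted genes cluster. The marks are read by proteins such as the zinc finger factor Zfp57 and the insulator protein Ctcf, and long non-coding RNAs such as Kcnq1ot1 and Airn keep neighbouring genes silent on the copy they are made from. Many imprinted genes control fetal growth and cell division, and several, such as Nnat, Cdkn1c, Dlk1 and Plagl1, are known from work on the beta cell, the insulin-secreting cell of the pancreatic islet. A list of 50 mouse imprinted genes, chosen by name with earlier results of these data known, was followed here. All 50 were found among the 55487 gene identifiers of the deposited tables. They fall into 19 clusters or single-gene loci.

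RNA was measured in beta cells flow-sorted from the islets of tamoxifen-treated mice. In the 4 Chd4KO libraries the helicase gene Chd4, which encodes the nucleosome-moving motor of the NuRD complex, had been deleted in beta cells (the animals are called Chd4Db in the series text). The other 4 libraries came from Control mice that had tamoxifen too, whose alleles the labels do not spell out. The labels name no Cre driver, sex or age, and they give each library its own animal number, so that replicates were taken as separate mice. The numbers are lower in every Control than in every Chd4KO library, and a difference of litter or day cannot be told apart from genotype. Values are TPM, a measure of transcript abundance that is corrected for gene length and sums to 1000000 in each library. TPM adds up both parental copies, so imprinting itself was not measured, and the expressed copy given for each gene is background knowledge from mouse.

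Chd4 was at 8.38, 6.18, 5.27 and 2.59 TPM in Chd4KO replicates 1 to 4, against 15.985, 13.4, 11.1 and 12.3 TPM in Control replicates 1 to 4. Chd4KO libraries thus held 42.4% of the Control mean (exact permutation p = 0.0286, two-sided, the smallest that 4 against 4 libraries allow). In the limma fit used for all genes Chd4 did not pass, with a log2 change of -1.18 ± 0.29 (adjusted p = 0.0725). Reads in genes, recovered from TPM, numbered 14.9 to 20.2 M in Chd4KO and 16.4 to 41.0 M in Control (M, reads times 1000000). Beta cell markers dominated every library, at a summed 394240 to 650140 TPM in Chd4KO and 425900 to 465000 TPM in Control, nearly all of it from Ins1, Ins2 and Iapp. Of the other markers in that list, Mafa was at 20.4 to 69.8 TPM in Chd4KO and 154 to 183 TPM in Control, Slc2a2 at 46.6 to 98.1 TPM in Chd4KO and 145 to 207 TPM in Control, and Nkx6-1 at 47.2 to 66.6 TPM in Chd4KO and 84.4 to 106 TPM in Control, each lower in every Chd4KO library. The groups overlapped for Pdx1, at 65.3 to 122 TPM in Chd4KO and 105 to 131 TPM in Control. They also overlapped for Ucn3, at 154 to 412 TPM in Chd4KO and 297 to 622 TPM in Control. The Chd4KO libraries differed in make-up. In replicate 4 the insulin genes took 62.0% of TPM, against 32.4 to 46.98% in the other Chd4KO libraries and 38.1 to 41.8% in Control. In replicate 2 the 8 markers of acinar cells summed to 29694 TPM, against 1.72 to 139 TPM in the other Chd4KO libraries and 5.20 to 1068 TPM in Control. In replicate 1 the 5 alpha cell markers summed to 4040 TPM, against 589 to 1775.5 TPM in the other Chd4KO libraries and 1274.5 to 2581 TPM in Control. The groups overlapped for the delta and PP cell markers (1784 to 3724 TPM in Chd4KO, 1758 to 3834 TPM in Control). They also overlapped for the ductal markers (55.7 to 190 TPM in Chd4KO, 85.6 to 117 TPM in Control). The 6 leukocyte markers summed to 34.7 to 80.7 TPM in Chd4KO and 18.1 to 31.2 TPM in Control, through Fcer1g and Cd68, while the common leukocyte antigen Ptprc did not exceed 0.831 TPM anywhere. The 7 stromal markers summed to 0.473 to 0.921 TPM in Chd4KO and 0.148 to 0.335 TPM in Control, and the 5 endothelial markers to at most 3.02 TPM. The part of these other cells in the results below was not tested. In sorted bulk cells, fewer cells that transcribe a gene and less RNA per cell cannot be told apart.

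Among the imprinted genes of Chd4KO beta cells 4 genes rose, 31 did not pass the test, and 15 were too low to test. The neuronatin gene Nnat, the transporter gene Slc22a18, the cell cycle inhibitor gene Cdkn1c and the ubiquitin ligase gene Mkrn3 rose. With limma on log2(TPM + 1), 4 of the 35 tested members rose and 0 fell at an adjusted p under 0.05. Over all 15189 genes tested, 1.53% were called higher and 1.44% lower, 2.97% in either direction. At an unadjusted p under 0.05 there were 8 members, 5 higher and 3 lower, where all genes had 16.2%. A fit on recovered reads with limma voom called 5 members higher and 0 lower. The groups did not overlap for 5 members that were higher in Chd4KO (all genes, 3.54%) and for 5 that were lower (all genes, 11.3%). Mkrn3 was tested only because its Chd4KO libraries reached the 1 TPM that the filter asks for. Cdkn1c reached 1 TPM in 4 Chd4KO libraries and 1 Control library, so it too needed Chd4KO libraries to pass. The member counts therefore describe these data and test nothing about imprinted genes as a group. The median change of the 35 was -0.33 (log2), beside -0.25 for all tested genes.

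The 4 genes that rose had mean levels of 0.246 to 3.06 TPM in Control. Split by the mean over all 8 libraries, 1 of the 20 tested members with at least 5 TPM rose (Nnat), where 1.01% of 9848 genes at that level did. Of the 15 tested members under 5 TPM 3 rose, Mkrn3 and Cdkn1c among them, where 2.51% of 5341 genes did. Over all 8 libraries 19 members had a mean of at least 10 TPM, 16 lay between 1 and 10 TPM and 15 below 1 TPM. Summed over the 50 members, TPM came to 1283 ± 230 in Chd4KO and 1235 ± 33.8 in Control (SD, n = 4 each, exact permutation p = 0.629, two-sided).

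**Figure D1:**
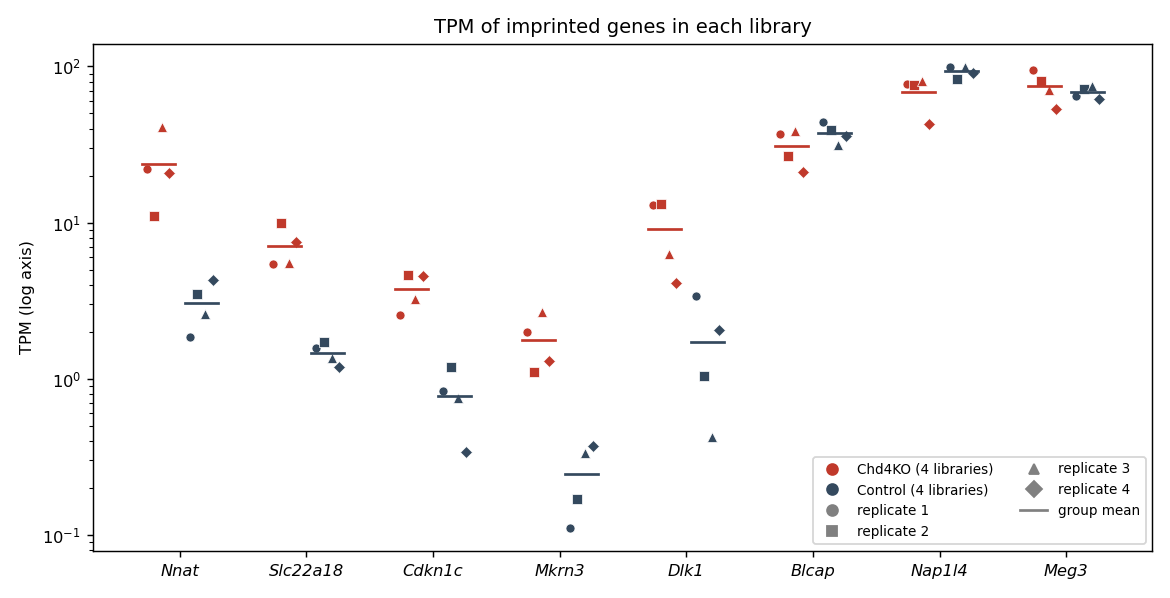
TPM (log axis) of 8 imprinted genes in the 4 Chd4KO and 4 Control libraries, with a symbol for each replicate number and a line at each group mean. For Nnat, Slc22a18, Cdkn1c, Mkrn3 and Dlk1 every Chd4KO point lies above every Control point, while Blcap and Meg3 overlap and Nap1l4 lies lower in Chd4KO.

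Nnat encodes neuronatin, a small membrane protein of the endoplasmic reticulum that is expressed from the paternal copy and is known for helping insulin precursor processing in beta cells. The gene (ENSMUSG00000067786, mm10 chromosome 2, 157560078 to 157562522, plus strand) lies inside an intron of Blcap. It was at 22.03, 11.1, 41.1 and 20.7 TPM in Chd4KO replicates 1 to 4, against 1.85, 3.48, 2.61 and 4.28 TPM in Control replicates 1 to 4. The lowest Chd4KO library lay above the highest Control library, and Chd4KO replicate 3 stood highest. The means of 23.7 ± 12.6 TPM in Chd4KO and 3.06 ± 1.05 TPM in Control (SD, n = 4 each) differed 7.76-fold, and limma put the log2 change at 2.51 ± 0.37 (SE, adjusted p = 0.00845). The small gene Gm23134 overlaps Nnat on the opposite strand, and the libraries do not mark strand, so its reads cannot be told apart from those of Nnat. Gm23134 was at 95.2 ± 60.0 TPM in Chd4KO and 9.15 ± 5.65 TPM in Control (limma adjusted p = 0.0124). Without Chd4KO replicates 2 and 4 the Nnat change was 2.98 (adjusted p = 0.0052).

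Blcap, the host gene that is transcribed from both copies in most tissues, did not follow. Its level was 36.6, 26.8, 38.3 and 21.03 TPM in Chd4KO, against 43.98, 39.4, 31.6 and 35.8 TPM in Control, with overlap between the groups (log2 change -0.32 ± 0.23, limma adjusted p = 0.495). Within each library the ratio of Nnat to Blcap was 0.412 to 1.07 in Chd4KO and 0.0421 to 0.120 in Control. Such a ratio does not depend on how a library was scaled.

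Slc22a18 and Cdkn1c are neighbours in the Kcnq1ot1 cluster of distal chromosome 7, and both are expressed from the maternal copy. Slc22a18 (ENSMUSG00000000154, mm10 chromosome 7, 143473736 to 143499334, plus strand) encodes a membrane transporter of the organic cation family. It was at 5.44, 9.998, 5.545 and 7.45 TPM in Chd4KO, against 1.58, 1.72, 1.35 and 1.18 TPM in Control. No Chd4KO library came near the narrow Control range. The means were 7.11 ± 2.14 TPM in Chd4KO and 1.46 ± 0.237 TPM in Control (SD, n = 4 each), a 4.88-fold difference, and by limma the change was 1.69 ± 0.22 (log2 ± SE, adjusted p = 0.00404). Without Chd4KO replicates 2 and 4 the change was 1.41 (adjusted p = 0.00459).

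Cdkn1c (ENSMUSG00000037664, chromosome 7, 143458339 to 143461050, minus strand) encodes p57, an inhibitor of cyclin-dependent kinases that holds cells out of the cell cycle. Its values were 2.57, 4.58, 3.26 and 4.55 TPM in Chd4KO, against 0.831, 1.19, 0.753 and 0.338 TPM in Control. Control replicate 2 alone reached 1 TPM among the Control libraries, and the groups did not overlap. The means of 3.74 ± 0.994 TPM in Chd4KO and 0.778 ± 0.350 TPM in Control (SD, n = 4 each) differed 4.81-fold, or by 1.41 ± 0.23 in the limma fit (log2 ± SE, adjusted p = 0.0132). Gm44732 overlaps Cdkn1c on the opposite strand and was at 5.94 ± 1.57 TPM in Chd4KO and 1.97 ± 1.08 TPM in Control (limma adjusted p = 0.0639). The Cdkn1c call was lost without Control replicate 3 (adjusted p = 0.0514) and without Control replicate 4 (adjusted p = 0.0578), and it held without Chd4KO replicates 2 and 4 (adjusted p = 0.0332).

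Mkrn3, a RING finger ubiquitin ligase expressed from the paternal copy, belongs to the Snrpn-Ube3a cluster, the mouse counterpart of the Prader-Willi and Angelman region. The gene (ENSMUSG00000070527, chromosome 7, 62417593 to 62420139, minus strand) was at 2.004, 1.11, 2.67 and 1.29 TPM in Chd4KO, against 0.111, 0.1695, 0.335 and 0.369 TPM in Control. All 4 Chd4KO libraries lay above 1 TPM and all 4 Control libraries below it. The limma fit gave a change of 1.12 ± 0.22 (log2 ± SE, adjusted p = 0.028), between means of 1.77 ± 0.711 TPM in Chd4KO and 0.246 ± 0.125 TPM in Control (SD, n = 4 each). This was the least stable of the 4 calls: it was lost without Chd4KO replicate 1 (adjusted p = 0.0615) or 3 (0.0776), and without Control replicate 1 (0.095), 2 (0.112), 3 (0.0836) or 4 (0.0886). Without Chd4KO replicates 2 and 4 it held (adjusted p = 0.00614).

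Dlk1, a membrane protein related to Notch ligands that is expressed from the paternal copy and is known from fetal tissues, did not reach the threshold. Its values were 12.9, 13.1, 6.29 and 4.07 TPM in Chd4KO, against 3.37, 1.04, 0.422 and 2.05 TPM in Control (ENSMUSG00000040856, chromosome 12, 109452823 to 109463336, plus strand). Both groups spread widely, yet the lowest Chd4KO library lay above the highest Control library. The means were 9.10 ± 4.61 TPM in Chd4KO and 1.72 ± 1.29 TPM in Control (SD, n = 4 each). The limma change was 1.89 ± 0.44 (log2 ± SE, adjusted p = 0.0571, unadjusted p = 0.00188). Without Chd4KO replicates 2 and 4 the Dlk1 change was 2.01 and did not pass (limma adjusted p = 0.0615). Without Chd4KO replicate 4 alone, the library with the high insulin share, the change was 2.18 (adjusted p = 0.0226). When any other single library was left out Dlk1 did not pass, with limma adjusted p of 0.0631 to 0.18.

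No window is shown for Cdkn1c, which had no promoter entry. DNA methylation sits at CG pairs, but methylation was not measured, and whether a window lies in an imprint control region was not looked at. The windows of 300 bases around the starts of Nnat, Slc22a18, Mkrn3 and Dlk1 are shown with CG pairs in capitals. Each runs from 250 bases before to 50 bases after a start in RefSeq (build GRCm38.p6) and reads 5′ to 3′ on the strand of the gene: Nnat at chr2:157559828-157560127 (plus), Slc22a18 at chr7:143473539-143473838 (plus), Mkrn3 at chr7:62420104-62420403 (minus) and Dlk1 at chr12:109452573-109452872 (plus).
Nnat: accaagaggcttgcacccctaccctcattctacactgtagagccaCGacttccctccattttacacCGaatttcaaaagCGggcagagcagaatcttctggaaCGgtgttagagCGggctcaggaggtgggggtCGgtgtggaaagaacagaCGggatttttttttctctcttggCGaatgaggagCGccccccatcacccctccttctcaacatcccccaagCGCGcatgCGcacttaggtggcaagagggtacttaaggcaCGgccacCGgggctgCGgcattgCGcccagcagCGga
Slc22a18: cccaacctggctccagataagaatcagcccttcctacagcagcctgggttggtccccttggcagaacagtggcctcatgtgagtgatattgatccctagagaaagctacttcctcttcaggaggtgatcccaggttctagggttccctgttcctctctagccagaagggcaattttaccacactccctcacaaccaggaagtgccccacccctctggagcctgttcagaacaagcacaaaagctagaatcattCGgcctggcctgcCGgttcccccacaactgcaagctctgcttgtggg
Mkrn3: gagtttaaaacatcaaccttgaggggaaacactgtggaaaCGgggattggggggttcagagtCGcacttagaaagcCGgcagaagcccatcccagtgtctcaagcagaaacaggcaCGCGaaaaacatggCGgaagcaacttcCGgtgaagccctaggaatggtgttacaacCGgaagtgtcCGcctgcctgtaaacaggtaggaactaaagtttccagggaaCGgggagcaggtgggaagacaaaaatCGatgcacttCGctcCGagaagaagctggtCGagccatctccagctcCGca
Dlk1: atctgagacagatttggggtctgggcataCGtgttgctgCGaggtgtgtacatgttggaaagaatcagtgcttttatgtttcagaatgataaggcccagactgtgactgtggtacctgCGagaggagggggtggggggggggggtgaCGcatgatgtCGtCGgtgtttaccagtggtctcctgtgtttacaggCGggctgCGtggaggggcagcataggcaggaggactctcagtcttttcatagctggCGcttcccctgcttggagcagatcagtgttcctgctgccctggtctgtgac

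The windows held 17 CG pairs for Nnat, 15 for Mkrn3, 9 for Dlk1 and 2 for Slc22a18. Over 57 windows of the 38 members with an entry the median was 13 CG pairs, beside 7 over all 32851 promoter windows. The Zfp57 hexamer TGCCGC, searched on both strands, occurred in the Nnat window and in 13 of the 57 member windows (22.8%), and in 11.6% of all windows. Some windows of the same gene overlap, such as the matching Mest windows at chr6:30737800-30738099 and chr6:30737803-30738102. The window counts are therefore not counts of separate sequences. A match describes these letters and is no binding site.

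Around Slc22a18 and Cdkn1c, the 973.58 kb of chromosome 7 from H19 to Nap1l4 (142575529 to 143549106) held 41 annotated genes. Of these 13 were tested and 5 rose, where 1.53% of all tested genes did. Since the span was set around called members, the count is a description. Besides the pair of members the genes that rose were Th, Cd81 and R74862. The transcript R74862 overlaps Cd81 on the opposite strand, so that without strand its reads and those of Cd81 are not separable. Th, the rate-limiting enzyme of dopamine synthesis, was at 154.9 ± 39.8 TPM in Chd4KO and 37.0 ± 9.02 TPM in Control (SD, n = 4 each), with a limma change of 2.02 ± 0.26 (log2 ± SE, adjusted p = 0.00397). Cd81, a tetraspanin membrane protein that is imprinted in mouse placenta, was at 303 ± 45.1 TPM in Chd4KO and 49.6 ± 17.2 TPM in Control (log2 change 2.63 ± 0.25, limma adjusted p = 0.00119). The tested genes between Cd81 and Cdkn1c did not pass the test. Tssc4, a splicing factor gene imprinted in placenta only, was the most strongly transcribed member. It was at 294, 174, 369.6 and 389.7 TPM in Chd4KO, against 223, 191, 230.5 and 209 TPM in Control. Chd4KO replicate 2 lay below every Control library and the other 3 above them (log2 change 0.46 ± 0.27, limma adjusted p = 0.415). Tssc4 overlaps Trpm5, a cation channel gene on the opposite strand that was at 11.1 ± 3.53 TPM in Chd4KO and 24.9 ± 5.98 TPM in Control (limma adjusted p = 0.0639). Nap1l4, a histone chaperone gene at the far end of the cluster, was at 76.97, 75.5, 80.96 and 42.6 TPM in Chd4KO, against 99.1, 83.6, 98.9 and 91.1 TPM in Control. All 4 Chd4KO libraries lay below all Control libraries, without passing the test (log2 change -0.47 ± 0.23, limma adjusted p = 0.359). Per library, the ratio to Nap1l4 was 0.0685 to 0.175 in Chd4KO and 0.01296 to 0.0205 in Control for Slc22a18, and 0.0334 to 0.107 in Chd4KO and 0.00371 to 0.0142 in Control for Cdkn1c.

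**Figure D2:**
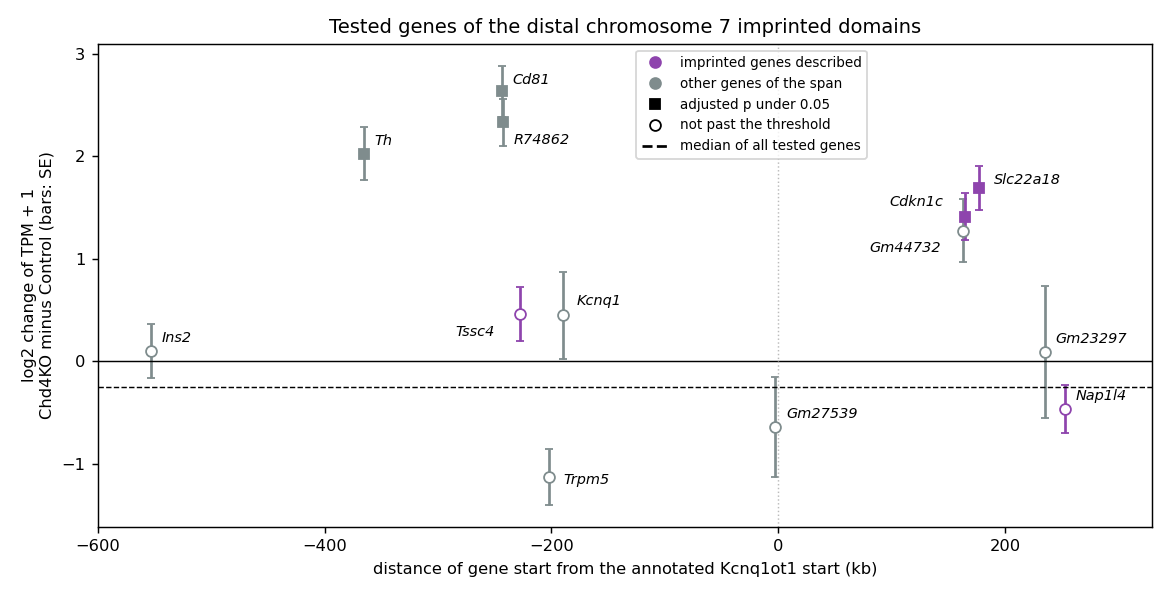
Log2 change of TPM + 1 (Chd4KO minus Control, bars show limma SE) of the 13 tested genes from H19 to Nap1l4, by distance of the gene start from the annotated Kcnq1ot1 start in kb. Squares mark the 5 genes past the threshold, Th, Cd81 and R74862 on one side and Cdkn1c and Slc22a18 on the other, and the dashed line marks the median of all tested genes at -0.25.

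Kcnq1ot1 itself, the paternal long non-coding RNA that silences the cluster in cis, was below the filter and was at 1.35, 1.08, 0.749 and 0.340 TPM in Chd4KO, against 0.989, 0.856, 0.789 and 0.937 TPM in Control. The Control libraries lay inside the Chd4KO range. Its reads cannot be told apart from those of Kcnq1, which it overlaps on the opposite strand. The placental growth restrictor Phlda2 did not exceed 0.332 TPM in any library, nor did Ascl2 and Tspan32, which are imprinted in placenta. At the end of the span near H19, the fetal growth factor gene Igf2 had 8, 20, 19 and 31 reads in Chd4KO, against 1, 1, 1 and 0 reads in Control, or 0.193 to 0.495 TPM in Chd4KO and at most 0.0247 TPM in Control. All Chd4KO libraries lay above all Control libraries, at a level too low for the test; with no filter on low values the limma adjusted p was 0.0473. The non-coding RNA H19 had 3, 3, 2 and 9 reads in Chd4KO, against 0, 5, 1 and 2 reads in Control (no-filter adjusted p = 0.315). Their TPM values did not overlap either, since the Control library with 5 reads was the deepest. The stromal marker sum, which was also higher in Chd4KO, was of the same order as these levels, and its part in them was not tested.

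In the Dlk1-Meg3 cluster of chromosome 12, the genes beside Dlk1 did not pass the test. Meg3, a maternal non-coding RNA and the start of a long transcript that carries many small RNAs, was at 94.7, 81.1, 70.999 and 53.6 TPM in Chd4KO, against 64.6, 71.4, 74.4 and 61.97 TPM in Control. The Control values lay within the Chd4KO range (log2 change 0.11 ± 0.21, limma adjusted p = 0.775). The ratio of Dlk1 to Meg3 was 0.0761 to 0.162 in Chd4KO and 0.00567 to 0.0521 in Control. The maternal transcripts Rian and Mirg and the paternal retrotransposon-like gene Rtl1 lay between 0.0133 and 4.47 TPM, with changes of -0.35, 0.24 and -0.36 (log2). Among these 5 members only Dlk1 had an unadjusted p under 0.05.

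In the Snrpn-Ube3a cluster Mkrn3 was the only one of 13 tested genes that was called, where 2.97% of all tested genes were. Snrpn, a paternal gene for a spliceosome protein, was at 60.2, 64.8, 57.3 and 72.2 TPM in Chd4KO, against 65.1, 62.5, 54.8 and 55.1 TPM in Control. The groups overlapped, with a change of 0.10 ± 0.17 (log2, limma adjusted p = 0.758). Ndn, the paternal gene of necdin, was at 54.4, 54.4, 51.4 and 32.7 TPM in Chd4KO, against 41.8, 34.3, 34.3 and 34.6 TPM in Control. Chd4KO replicate 4 lay below the Control libraries and the other 3 above them (log2 change 0.38 ± 0.21, limma adjusted p = 0.402). Ndn passed without that library and under median-of-ratios scaling, quantile normalisation and array weights. Ube3a, the ubiquitin ligase expressed from the maternal copy in neurons, was at 8.896 ± 4.603 TPM in Chd4KO and 11.6 ± 2.004 TPM in Control (SD, n = 4 each, limma adjusted p = 0.529). Magel2 and Peg12 had 0 reads in most libraries and at most 0.214 TPM. The ratio of Mkrn3 to Ndn was 0.0204 to 0.0518 in Chd4KO and 0.00265 to 0.0107 in Control.

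**Figure D3:**
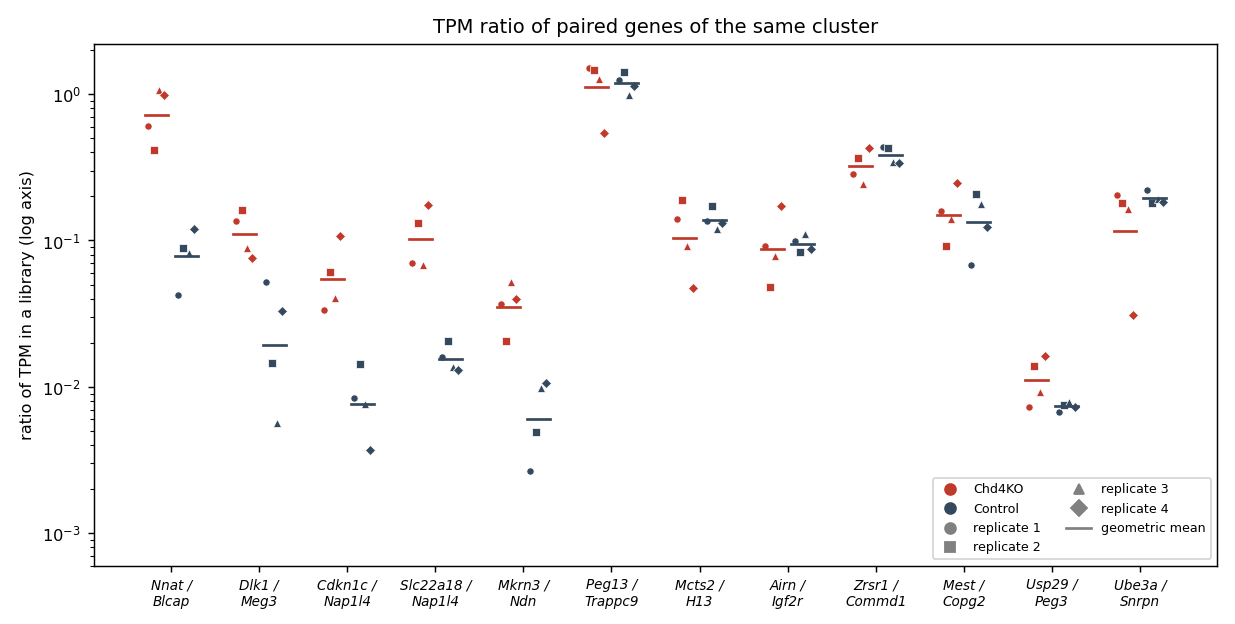
Ratio of TPM between a gene and a partner of the same cluster in each library (log axis) for 12 pairs, with a symbol for each replicate number and a line at the geometric mean. In the 5 pairs at the left all Chd4KO points lie above all Control points, and in the 7 pairs at the right the groups overlap.

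Among 12 such within-cluster ratios, 5 did not overlap between the groups and were higher in Chd4KO, those of Nnat, Dlk1, Cdkn1c, Slc22a18 and Mkrn3. Their differences in mean log2 ratio were 3.20, 2.51, 2.83, 2.73 and 2.54. Each had an exact permutation p of 0.0286 (two-sided, the smallest possible), or 0.0686 after Benjamini-Hochberg adjustment over the 12. The pairs were chosen with the changes of these genes known, so the ratios are a description. The other 7 ratios overlapped, among them paternal Airn over maternal Igf2r at 0.0479 to 0.171 in Chd4KO and 0.0829 to 0.111 in Control, and paternal Peg13 over Trappc9 at 0.543 to 1.51 in Chd4KO and 0.980 to 1.42 in Control.

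The other clusters held no called member. Of the 31 tested members that were not called, all but Dlk1 had a fold of means between 0.486 and 1.44 and a limma adjusted p of at least 0.209. Those with an unadjusted p under 0.05 were all lower. Grb10, an adaptor that dampens insulin receptor signalling and is maternal in most tissues and paternal in neurons, was at 4.34, 4.42, 2.06 and 1.495 TPM in Chd4KO, against 9.46, 4.84, 5.16 and 5.88 TPM in Control. The groups did not overlap, but 2 Chd4KO libraries came close to the Control range (log2 change -0.89 ± 0.31, limma adjusted p = 0.209). Copg2, a coat protein of Golgi vesicles that runs antisense to Mest, was at 10.1, 7.79, 9.31 and 4.50 TPM in Chd4KO, against 13.1, 13.3, 10.8 and 13.1 TPM in Control. Every Chd4KO library lay below every Control library (log2 change -0.65 ± 0.24, limma adjusted p = 0.233). Ppp1r9a, which encodes the actin-binding protein neurabin, was at 1.03, 2.21, 0.772 and 0.494 TPM in Chd4KO, against 2.80, 2.50, 1.66 and 2.24 TPM in Control. Chd4KO replicate 2 lay within the Control range (log2 change -0.68 ± 0.26, limma adjusted p = 0.238).

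Strongly transcribed members of other loci overlapped between the groups. The Gs alpha locus Gnas, which couples receptors to cyclic AMP and makes several imprinted transcripts, was at 222, 169, 157.5 and 156.7 TPM in Chd4KO, against 198, 172, 179.6 and 173.8 TPM in Control (log2 change -0.05 ± 0.18, limma adjusted p = 0.888). H13, a signal peptide peptidase whose isoforms are imprinted, was at 124, 73.5, 89.5 and 75.95 TPM in Chd4KO, against 111, 77.9, 104 and 94.7 TPM in Control (adjusted p = 0.795). The groups overlapped in both genes. Mcts2, a paternal retrogene inside H13, was at 10.8 ± 6.08 TPM in Chd4KO and 13.3 ± 1.24 TPM in Control (SD, n = 4 each). Peg3, a paternal zinc finger gene, was at 161, 138.5, 108 and 37.1 TPM in Chd4KO, against 115, 176, 141 and 139 TPM in Control (adjusted p = 0.527). Here Chd4KO replicate 4 lay far below the other 7 libraries, which overlapped. Its neighbours Usp29 and Zim1 lay between 0.436 and 1.91 TPM.

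Several members were spread over the Chd4KO libraries far more than over the Control libraries. Slc38a4, a paternal amino acid transporter gene, was at 142, 169, 53.7 and 19.5 TPM in Chd4KO, against 82.5, 102.5, 88.3 and 86.5 TPM in Control (log2 change -0.33 ± 0.59, limma adjusted p = 0.77). Igf2r, the maternal receptor that clears Igf2, was at 29.75, 19.2, 8.37 and 2.24 TPM in Chd4KO, against 23.5, 21.96, 15.4 and 19.8 TPM in Control (-0.84 ± 0.61, adjusted p = 0.491). Inpp5f, a phosphoinositide phosphatase gene with an imprinted short transcript, was at 38.3, 22.1, 13.4 and 5.89 TPM in Chd4KO, against 12.7, 18.9, 18.2 and 18.9 TPM in Control (-0.05 ± 0.47, adjusted p = 0.958). In all 3 the Chd4KO libraries reached above and below the Control range, with replicate 4 lowest. Peg13, a paternal non-coding RNA inside Trappc9, was at 49.3, 39.9, 38.9 and 6.75 TPM in Chd4KO, against 47.3, 43.99, 30.2 and 34.8 TPM in Control (adjusted p = 0.638). Plagl1, a paternal zinc finger gene linked to transient neonatal diabetes in humans, was at 3.34, 1.05, 0.656 and 0.0972 TPM in Chd4KO, against 1.44, 1.75, 0.818 and 1.38 TPM in Control (adjusted p = 0.77). Asb4, a maternal ankyrin repeat gene, was at 3.44, 5.11, 0.599 and 0.258 TPM in Chd4KO, against 1.65, 5.64, 3.45 and 4.03 TPM in Control (adjusted p = 0.497). Replicate 4 was again the lowest library in these 3 genes. Over the 35 tested members, Chd4KO replicate 4 was the lowest of the 8 libraries in 25 (71.4%), and in 67.7% of all tested genes, so this library sat low in general.

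The remaining loci held no called member either. Impact, a paternal gene that restrains the translation kinase Gcn2, was at 24.0, 31.8, 17.5 and 11.9 TPM in Chd4KO, against 27.7, 30.2, 26.9 and 28.96 TPM in Control (limma adjusted p = 0.417). Commd1, a copper and endosome transport gene, was at 4.74, 4.41, 4.18 and 2.76 TPM in Chd4KO, against 5.09, 5.06, 4.84 and 5.23 TPM in Control (adjusted p = 0.453). Commd1 and the paternal splicing factor gene Zrsr1 inside it both lay lower in every Chd4KO library than in any Control library, neither past the test; Zrsr1 was at 1.29 ± 0.251 TPM in Chd4KO and 1.97 ± 0.279 TPM in Control (SD, n = 4 each). Mest, a paternal hydrolase gene of the mesoderm, Airn and Trappc9 overlapped between the groups, with changes of -0.33, -0.52 and -0.41 (log2). The potassium channel gene Kcnk9 beside Trappc9 was below the filter, at 2.49, 1.16, 0.710 and 0.199 TPM in Chd4KO, against 0.356, 0.395, 0.201 and 1.02 TPM in Control. Peg10 and Sgce of chromosome 6 and the matrix gene Dcn did not exceed 0.339 TPM, and Klf14 and Calcr were listed at 0 in all 8 libraries.

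**Figure D4:**
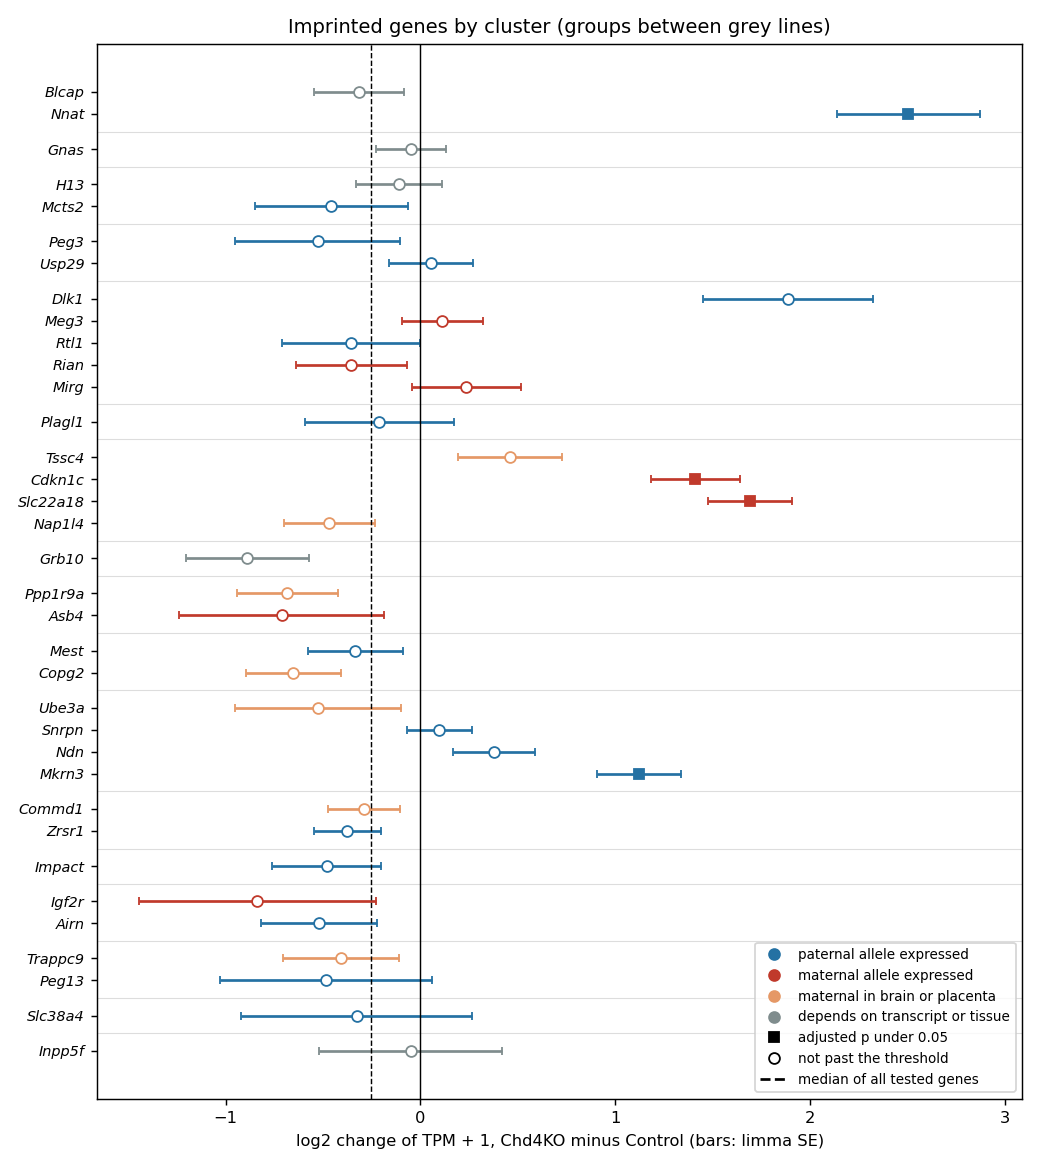
Log2 change of TPM + 1 (Chd4KO minus Control, bars show limma SE) of the 35 tested members, grouped by cluster and coloured by the copy known to be expressed. The 4 filled squares (Nnat, Cdkn1c, Slc22a18 and Mkrn3) passed the threshold, and most open circles lie near the dashed median of all tested genes at -0.25.

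Set out by parental copy, genes of either origin were among those that rose. Of 22 paternally expressed members 16 were tested and 2 rose, Nnat and Mkrn3, with a median change of -0.33 (log2). Of 11 maternally expressed members 7 were tested and 2 rose, Slc22a18 and Cdkn1c, with a median change of 0.11. Of 12 members that are maternal in brain or placenta only, 7 were tested and 0 were called by limma (2 at an unadjusted p under 0.05, both lower), with a median of -0.47. Of 5 whose imprint depends on transcript or tissue all 5 were tested and 0 were called (1 at an unadjusted p under 0.05), with a median of -0.11. Voom called 0 members of these last sets as well. Over all tested genes the median was -0.25, and 1.53% were called higher and 1.44% lower. Among the genes that rose, Mkrn3 and Cdkn1c needed their Chd4KO libraries to pass the filter. Groups of this size and origin were not tested against each other.

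Genes that set or read imprints were looked at alongside. Of 22 such genes 17 were tested, and limma called 0 of them, with 0 at an unadjusted p under 0.05; voom on recovered reads called 0 as well. Over all tested genes limma called 2.97%, and 16.2% had an unadjusted p under 0.05. The median change of the 17 was -0.32. Mbd3, a NuRD subunit, was at 85.7 ± 11.9 TPM in Chd4KO and 84.0 ± 6.49 TPM in Control (SD, n = 4 each, adjusted p = 0.954), and Trim28, the corepressor that Zfp57 recruits, at 41.9 ± 8.99 TPM in Chd4KO and 39.0 ± 3.90 TPM in Control (adjusted p = 0.844). Zfp57 was below the filter, at 0.765, 0.0748, 0.293 and 0.245 TPM in Chd4KO, against 0, 0.0285, 0.0225 and 0.0331 TPM in Control, higher in every Chd4KO library on 2 to 21 reads there. Tet1, which oxidises methylated cytosine, was below the filter too, at 0.687, 0.623, 0.663 and 0.142 TPM in Chd4KO, against 2.12, 1.60, 1.22 and 0.940 TPM in Control. It was lower in every Chd4KO library, on 26 to 77 reads in Chd4KO and 221 to 459 reads in Control. With no filter on low values limma tested all 22 of these genes, Zfp57 and Tet1 included, and called 0. Of 38 neighbours of imprinted domains 25 were tested, 2 rose (Th and Cd81) and 1 fell. Over all tested genes 1.53% were called higher and 1.44% lower. The groups did not overlap for 2 neighbours that were higher in Chd4KO (all genes, 3.54%) and for 9 that were lower (all genes, 11.3%). Of the 25, 11 had an unadjusted p under 0.05, where all genes had 16.2%. The neighbour that fell was Ddc, which makes dopamine and serotonin and lies beside Grb10. It was at 158, 123, 146 and 82.9 TPM in Chd4KO, against 306, 276, 254 and 286 TPM in Control (log2 change -1.17 ± 0.23, limma adjusted p = 0.0291). Ddc lost its call without Chd4KO replicate 2 (adjusted p = 0.0577) or 3 (0.063) and without Control replicate 1 (0.0952), 2 (0.105), 3 (0.081) or 4 (0.11). The median change of these neighbours was -0.42. Both lists were drawn up with earlier results of these data known, so their counts are a description.

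Of 12 other genes reported as imprinted in mouse, outside the 50, 7 were tested and 2 rose, where 1.53% of all tested genes did. These genes were listed with earlier results of these data known, so the count is a description and tests nothing about imprinted genes. Qpct, an enzyme that closes the amino end of peptides into pyroglutamate, was at 5.81, 8.195, 5.57 and 9.41 TPM in Chd4KO, against 1.28, 1.87, 1.78 and 2.27 TPM in Control. The groups lay well apart (log2 change 1.54 ± 0.22, limma adjusted p = 0.00651). Smoc1, a secreted calcium-binding matrix protein, was at 9.39, 4.13, 6.18 and 3.16 TPM in Chd4KO, against 0.404, 0.617, 0.975 and 0.269 TPM in Control (log2 change 2.03 ± 0.30, limma adjusted p = 0.00845). Like Mkrn3, it passed the filter only through its Chd4KO libraries. Gatm, an enzyme of creatine synthesis, was at 172 ± 13.6 TPM in Chd4KO and 129.5 ± 39.0 TPM in Control (SD, n = 4 each, adjusted p = 0.358).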

How the data were processed

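The authors' deposited tables, 1 for each library, give TPM for 55487 Ensembl gene identifiers and sum to 1000000. The submitters' processing notes name the build mm10 and the tools HISAT2, HTSeq, DESeq2, Trimmomatic and FastQC; versions, roles and the annotation release are not given in the sources used here. Per the labels' protocols, RNA of sorted cells was amplified by SMART-Seq and made into Nextera XT libraries, which do not mark strand. Symbols and positions came from GENCODE M21, which held 55227 of the identifiers (99.5%). A few abundant transcripts, such as insulin, lower the TPM of all other genes in a library.

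Genes with at least 1 TPM in at least 4 libraries (15189) were tested with limma 3.58.1 (R 4.3.3) on log2(TPM + 1), a scale that understates changes of low genes, with genotype as the only term and Benjamini-Hochberg adjustment over all of them at 0.05. Single values were compared with exact permutation tests over the libraries, two-sided, with Python 3.11.15. TPM times exon length came out as whole reads, within 0.05 of a read, for 98.4 to 98.7% of values, and these reads gave depth and an alternative fit with voom. The fit was tested on simulated data. Alternatives were another pseudocount, filter, scaling, weighting, a replicate block and leaving out libraries, in fits on the genes tested with all 8.

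The 50 members and the lists were chosen with earlier results of these data known. The rule for named genes took members that were called or had an unadjusted p under 0.05, the most strongly transcribed tested member of each cluster, and from other lists the called genes and those of highest level. Other genes given with values, such as Ndn, Ube3a, Mcts2, Kcnq1ot1, Igf2, H19, Kcnk9, Zfp57 and Tet1, were chosen after their values were seen.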

Additional observations from a re-analysis of the deposited data

Results flagged for a closer look

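A single library lay far from the other 3 of its group in 7 of the 70 gene and group combinations looked at, by Dixon's gap test at 95%, which chance alone meets in about 1 of 20. In Chd4KO replicate 4, the library with the high insulin share, Nap1l4 (42.6 TPM), Ndn (32.7 TPM) and Peg13 (6.75 TPM) lay far below the other Chd4KO libraries. In Control replicate 1 Ndn (41.8 TPM) and Trappc9 (37.96 TPM) lay above the other Control libraries and Inpp5f (12.7 TPM) lay below them. In Control replicate 3 Copg2 (10.8 TPM) lay below the others. None of these 6 genes was called in the main comparison.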

How the results depend on the processing

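Nnat and Slc22a18 were called in all 19 alternatives, Cdkn1c in 16 of 18, Mkrn3 in 11 of 18 (adjusted p 0.00257 to 0.112) and Dlk1 in 6 of 18 (0.00691 to 0.18). The members called numbered 4 in the main fit, 2 at a minimum of 5 TPM, which did not test Cdkn1c, Mkrn3 or Dlk1, and 2 to 6 when libraries were left out in turn. Median-of-ratios scaling, quantile normalisation and array weights called 6, adding Dlk1 and Ndn. Domain neighbours called numbered 5 under quantile normalisation and array weights (2 higher, 3 lower) against 3, and other imprinted genes 1 at a minimum of 5 TPM against 2. Over all genes, 451 calls (233 higher, 218 lower) became 220 at a minimum of 5 TPM, 724 with median-of-ratios scaling (444 higher, 280 lower), 681 with scaling without islet hormones and mitochondrial genes, 743 with quantile normalisation, 1364 with array weights, 785 without Chd4KO replicates 2 and 4, and 171 to 829 when libraries were left out in turn. Median-of-ratios scaling moved the median of all genes to -0.02 and quantile normalisation to -0.05, from -0.25.

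Signs turned only in genes that were not called, to these log2 changes. With median-of-ratios scaling Gnas came to 0.24, H13 to 0.18 and Inpp5f to 0.21; with scaling without hormones to 0.11, 0.046 and 0.085; with quantile normalisation to 0.079, 0.053 and 0.22; with voom to 0.064, 0.0026 and 0.031. Array weights gave Peg13 0.12. Without Chd4KO replicate 4 Gnas came to 0.001, Inpp5f to 0.39, Peg13 to 0.14, Plagl1 to 0.078, Slc38a4 to 0.28 and Ins2 to -0.13. Without Chd4KO replicates 2 and 4 Blcap came to 0.0017, Gnas to 0.049, H13 to 0.14, Inpp5f to 0.41, Peg13 to 0.18, Plagl1 to 0.21 and Snrpn to -0.011. Without Chd4KO replicate 1 Meg3 came to -0.0073 and Mbd3 to -0.052, without Chd4KO replicate 3 Inpp5f to 0.039 and Mbd3 to -0.019, and without Control replicate 2 Mbd3 to -0.032. Leaving out libraries in turn, these changes ranged from -0.17 to 0.001 for Gnas, -0.44 to 0.39 for Inpp5f, -0.0073 to 0.26 for Meg3, -0.76 to 0.14 for Peg13, -0.58 to 0.078 for Plagl1, -0.74 to 0.28 for Slc38a4 and -0.13 to 0.27 for Ins2. The causes were not tested.

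With the replicate number as a block, 274 genes and 3 members were called, without Mkrn3 (adjusted p = 0.0736), and Ddc was lost (0.0754). Same-numbered libraries deviated with correlations of -0.024, 0.43, 0.077 and 0.038, and by their labels share only a number. In both groups replicate 2 had the highest acinar marker sum, 29694 TPM in Chd4KO and 1068 TPM in Control. Its part in the correlation of 0.43 was not tested. At 14.9 to 41.0 M reads in genes, Igf2 and H19 rest on 31 reads or fewer in each library.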
